A study of Mus musculus with 6 samples.

Results

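The enzymes described here build the lipids that waterproof the skin surface, and the list held 34 mouse genes, chosen by symbol for their place in the synthesis, transport and processing of epidermal ceramides. All 34 were among the 24014 genes of each table, and 33 of them passed the filter on low counts. The exception was Alox8, a lipoxygenase gene, whose counts were 10, 1 and 7 in the blister group against 31, 9 and 23 in the control group (libraries 1, 2 and 3). RNA came from epidermal cells of the back skin of wild type mice at postnatal day 2. The blister group, 3 libraries, came from skin in which suction of 523.4 ± 1.3 mmHg through a syringe 4 mm wide had raised a blister, typically 3 mm across, that was healing. The control group, 3 libraries, came from skin labelled as control. Both groups were left overnight in 0.25% trypsin and passed through a 70 µm filter, so follicle, gland and other cells that came away with the epidermis are in the RNA. The labels do not say which strain was used, how long after suction the skin was taken or how many animals made up a library, and the p-values measure the spread between libraries, which may be partly technical.

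In the upper epidermis, keratinocytes lengthen fatty acids to an unusual extent, hydroxylate them at the far end, join them to a sphingoid base as ceramides and add linoleate to make acylceramides. These are capped with glucose, packed into lamellar bodies and secreted. Lipoxygenases then oxidise the linoleate, which leads to ceramides bound covalently to the cornified envelope, while sphingomyelinases and ceramidases release or break down ceramide. Loss of many of these genes in humans or mice gives ichthyosis or a leaky barrier. Sebaceous glands and hair follicles use relatives of the same enzymes for sebum and hair lipids.

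Totals ran from 7600567 to 15912863 counts per library, lowest in blister 2. Levels are given as CPM, counts scaled to a common library total after TMM, a correction for differences in library composition. The labelled tissue was borne out by markers of epidermal layers, keratins among them. The 7 basal layer markers summed to 42520 to 60420 CPM in blister and 23960 to 24370 CPM in control libraries. The 7 suprabasal markers summed to 49350 to 142900 CPM in blister and 43450 to 70080 CPM in control libraries. Markers of other cells moved with the groups. Of 14 tested hair follicle markers 12 were lower in blister libraries (summed 256 to 1122 CPM in blister, 3042 to 5463 CPM in control), led in level by Krt71 (99.7 against 1015 CPM). Of 13 tested sebaceous gland markers 4 were lower and 0 higher (2548 to 3659 CPM in blister, 2737 to 5388 CPM in control). Melanocyte markers were lower for 4 of 6, dermal fibroblast markers for 6 of 12 with 1 higher, and neutrophil markers higher for 8 of 8. Control 3 stood apart in fibroblast (7633 CPM against at most 1584 CPM elsewhere) and skeletal muscle RNA (144 CPM against at most 3.99 CPM). The most abundant marker was Krt14 for basal cells, Krt1 for suprabasal cells, Dct for melanocytes, Col3a1 for fibroblasts and Ttn for skeletal muscle. These calls and those below are edgeR quasi-likelihood tests with Benjamini-Hochberg adjustment over 14028 genes, at an adjusted p under 0.05. Fewer cells of a type and less RNA per cell cannot be told apart in such bulk libraries.

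Of the 33 tested enzymes, 6 were higher in the healing blister and 2 lower. Those that rose were Degs1, Sptlc2 and Cers3 of base and ceramide synthesis (3 of the 10 tested genes of that step), the acylceramide cofactor Abhd5, the glucosyltransferase Ugcg and the ceramidase Asah1. Those that fell were the lipoxygenase Aloxe3 and the elongase Elovl5. That is 24.2% called, against 21.3% of all 14028 genes (9.74% higher and 11.6% lower), a share close to the background. At an unadjusted p under 0.05 there were 18 of 33 enzymes (54.5%) and 39.0% of all genes. Changes were moderate: the fitted log2 fold changes, blister over control, ran from -1.23 to 0.93, with a median of 0.15 for the enzymes and 0.002 for all genes. The enzymes' median turned negative with scaling by library size alone (-0.12, all genes -0.25), without blister 1 (-0.04) and without blister 3 and control 3 (-0.03).

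**Figure D1:**
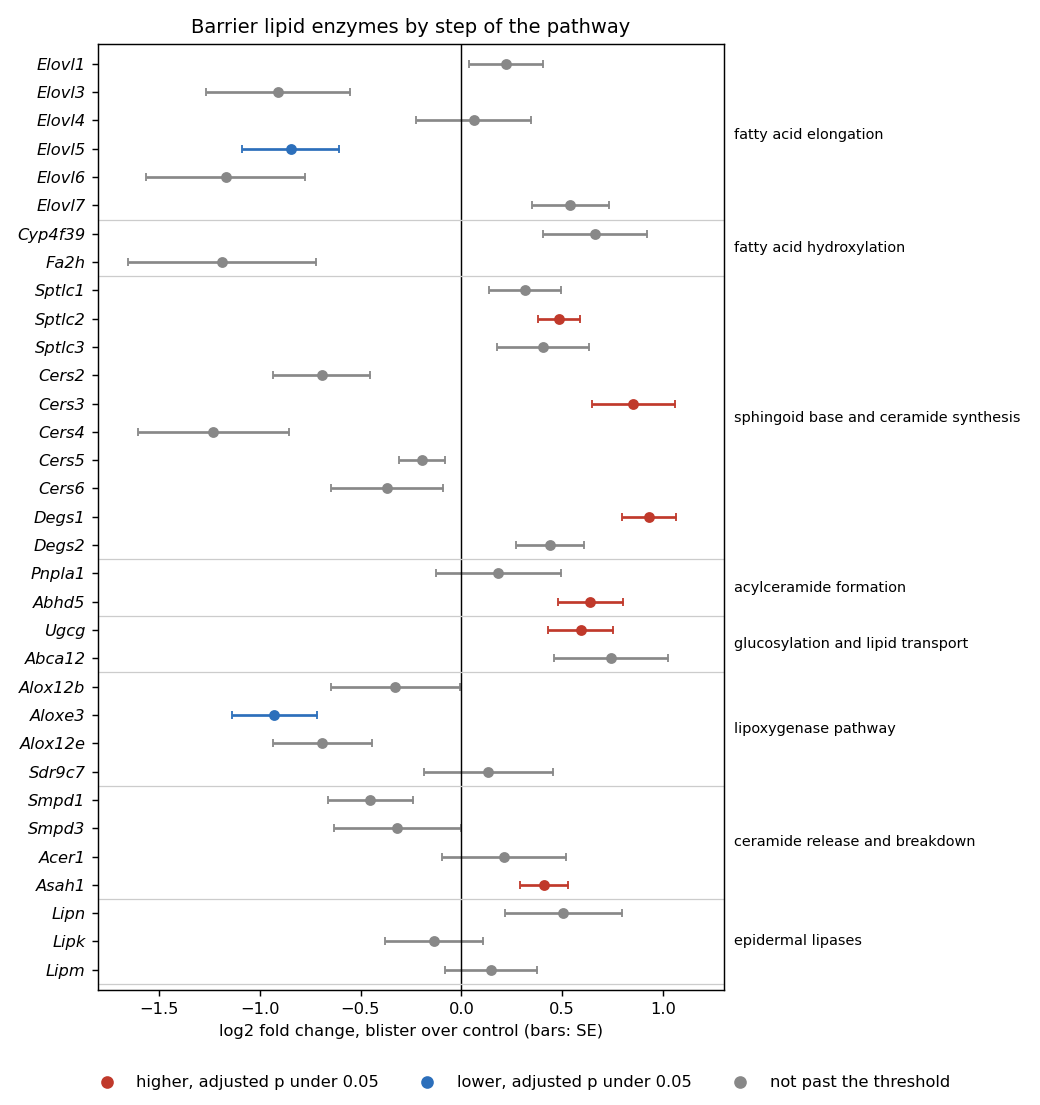
Log2 fold change of blister over control (x axis) for the 33 tested enzymes, grouped by step, with bars for the standard error of the edgeR fit. Red points passed the adjusted threshold upwards (6 genes), blue points downwards (2 genes) and grey points did not pass. Elongases, ceramide synthases and hydroxylases each hold members on both sides of 0.

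Promoters are shown for 4 enzymes: Degs1 and Cers3, which rose, and Cers4 and Elovl6, which were not called. Cers4 and Elovl6 were lower in blister 1 and 2 than in any control. In blister 3 both lay above control 3 (Cers4 86.4 and 79.0 CPM, Elovl6 276 and 249 CPM). The promoters run from 250 bases before to 50 bases after the annotated start, 5′ to 3′, in the RefSeq table of GRCm38.p6. They were matched by symbol and not by the coordinates of the counted build. Of the 34 enzymes, 28 had an entry. Capitals mark matches, on either strand, to any of TATAAA (the core box of that name, in 13.6% of the 32851 promoters of the table), TGANTCA (AP-1, 7.81%), TTGCNNAA (C/EBP, 10.8%), AACCNGTT (Grainyhead-like, 2.09%), AGGTCA (part of a nuclear receptor site, 16.3%), CTTTGA (LEF/TCF, 16%) or CCACCC (Klf, 31.5%).
Degs1, chr1:182282146-182282445, minus strand: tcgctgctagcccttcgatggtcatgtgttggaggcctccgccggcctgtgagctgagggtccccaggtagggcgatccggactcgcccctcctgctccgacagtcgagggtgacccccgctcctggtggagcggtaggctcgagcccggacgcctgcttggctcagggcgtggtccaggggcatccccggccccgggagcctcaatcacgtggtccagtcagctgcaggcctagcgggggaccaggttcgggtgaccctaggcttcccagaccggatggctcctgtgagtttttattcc
Cers3, chr7:66743254-66743553, plus strand: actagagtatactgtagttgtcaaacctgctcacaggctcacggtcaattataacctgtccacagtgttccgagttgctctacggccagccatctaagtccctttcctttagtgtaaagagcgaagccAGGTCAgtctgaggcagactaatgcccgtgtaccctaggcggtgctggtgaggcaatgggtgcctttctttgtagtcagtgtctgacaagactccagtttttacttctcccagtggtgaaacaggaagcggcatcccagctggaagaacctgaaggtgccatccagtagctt
Cers4, chr8:4493155-4493454, plus strand: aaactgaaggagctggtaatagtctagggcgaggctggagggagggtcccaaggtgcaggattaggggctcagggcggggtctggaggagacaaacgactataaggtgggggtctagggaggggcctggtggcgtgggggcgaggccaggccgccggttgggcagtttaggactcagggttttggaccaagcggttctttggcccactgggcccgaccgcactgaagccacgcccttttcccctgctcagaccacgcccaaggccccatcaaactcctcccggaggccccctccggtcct
Elovl6, chr3:129532136-129532435, plus strand: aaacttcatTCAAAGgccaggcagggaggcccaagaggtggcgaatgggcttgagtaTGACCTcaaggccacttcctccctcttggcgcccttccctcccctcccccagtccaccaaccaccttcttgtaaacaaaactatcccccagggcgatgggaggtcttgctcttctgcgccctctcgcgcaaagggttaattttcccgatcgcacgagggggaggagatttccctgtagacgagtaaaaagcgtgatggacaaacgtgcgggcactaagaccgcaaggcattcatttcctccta
The Cers3 window held 1 AGGTCA match and the Elovl6 window 1 AGGTCA and 1 LEF/TCF match. None of the motifs occurred in the Degs1 and Cers4 windows. GC content was 67.3% for Degs1, 50.7% for Cers3, 64.3% for Cers4 and 55.7% for Elovl6. The matches are letters in a window, and binding was not measured.

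Synthesis of the sphingoid base and of ceramide held the clearest rise. Degs1, the desaturase that places the double bond in dihydroceramide to give ceramide, reached 379, 307 and 293 CPM in blister 1, 2 and 3, against 169, 174 and 171 CPM in control 1, 2 and 3. The groups did not overlap, and the controls lay close together. It averaged 326 ± 46.3 CPM in blister and 171 ± 2.92 CPM in control libraries (SD, n = 3 each), 1.90-fold higher (log2 fold change 0.93 ± 0.13 SE, edgeR adjusted p = 0.00814). This call remained without any 1 of the 6 libraries (edgeR adjusted p 0.00552 to 0.0411). Its relative Degs2, which also hydroxylates the base to make phytoceramides, stood far lower, at 17.5, 16.8 and 14.7 CPM in blister and 12.5, 13.1 and 10.6 CPM in control libraries. These values do not overlap either, but the test did not pass (log2 fold change 0.44 ± 0.17, edgeR adjusted p = 0.0980). Degs2 shares 10.8% of its exon bases with Evl on the opposite strand, and the sources used here do not state whether counting used strand, so reads of such pairs cannot be told apart.

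Serine palmitoyltransferase, the entry enzyme, joins serine to a fatty acyl-CoA and consists of Sptlc1 with either Sptlc2 or Sptlc3. Sptlc2 was at 112, 105 and 98.6 CPM in blister, against 73.8, 79.0 and 72.5 CPM in control libraries, each blister library above each control. The rise was 1.40-fold (log2 fold change 0.49 ± 0.10, edgeR adjusted p = 0.0203). It no longer passed without blister 1 (edgeR adjusted p = 0.0656), control 1 (0.0930), control 2 (0.0541) or control 3 (0.0720). Sptlc1 was at 130.2, 83.7 and 95.9 CPM in blister, against 80.5, 92.6 and 76.0 CPM in control libraries, and Sptlc3 at 97.7, 53.3 and 78.6 CPM in blister and 63.4, 62.9 and 47.4 CPM in control libraries. In both genes blister 1 was the highest library and blister 2 lay within the control range, and neither passed (log2 fold changes 0.32 ± 0.18 and 0.41 ± 0.23).

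Of the 5 tested ceramide synthases, which attach the fatty acid, 1 was called, Cers3. Cers3, the synthase of ultra-long acyl chains on which the epidermal barrier depends, was at 133, 75.6 and 97.6 CPM in blister, against 52.9, 63.1 and 53.9 CPM in control libraries. All blister libraries lay above all controls, with blister 1 highest, and the difference was 1.80-fold (log2 fold change 0.85 ± 0.21, edgeR adjusted p = 0.0278). That call was lost without blister 1 (edgeR adjusted p = 0.0670), control 1 (0.0989), control 2 (0.0606) or control 3 (0.0803). Cers4, known in mouse skin from follicles and sebaceous glands, was at 41.8, 47.2 and 86.4 CPM in blister, against 144, 189.9 and 79.0 CPM in control libraries. Here blister 3 lay above control 3, and the difference did not pass (log2 fold change -1.23 ± 0.37, edgeR adjusted p = 0.0538). It passed in 8 of 19 alternative fits, among them those without blister 3 (0.0233) and without control 3 (0.0350). With all libraries kept, it passed under upper quartile or library size scaling, with no filter or a stricter one, and with DESeq2.

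Cers2, the broadly expressed synthase of very long chains, was at 21.0, 39.9 and 26.6 CPM in blister, against 44.6, 41.2 and 54.9 CPM in control libraries, just short of overlapping in blister 2 and control 2 (log2 fold change -0.69 ± 0.24, edgeR adjusted p = 0.0739, or 0.0266 without blister 2). Cers5, which prefers shorter acyl chains, varied little, at 44.8 to 50.8 CPM in blister and 49.7 to 57.2 CPM in control libraries. Cers6, of similar preference, ranged from 9.64 to 18.8 CPM in blister and from 14.5 to 18.0 CPM in control libraries, and it passed only when blister 3, its highest library, was left out (-0.74, edgeR adjusted p = 0.0305). Per kilobase of the principal transcript, Cers3 led the synthases in both groups. It had 88.2 ± 25.2 CPM per kb in blister and 48.9 ± 4.83 CPM per kb in control libraries. Cers5 followed at 22.4 ± 1.596 in blister and 25.7 ± 1.80 in control libraries, then Cers2 at 13.2 ± 4.38 and 21.2 ± 3.23, Cers4 at 6.17 ± 2.57 and 14.5 ± 5.88 and Cers6 at 1.83 ± 0.73 and 2.37 ± 0.27 CPM per kb (blister, then control). In control libraries the SD ranges of Cers5 and Cers2, and of Cers2 and Cers4, overlapped. With length taken over all annotated exons the order was the same, but Cers3 stood at 17.4 ± 1.72 CPM per kb beside 15.2 ± 1.06 for Cers5 in control libraries, so their gap depends on the gene model.

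**Figure D2:**
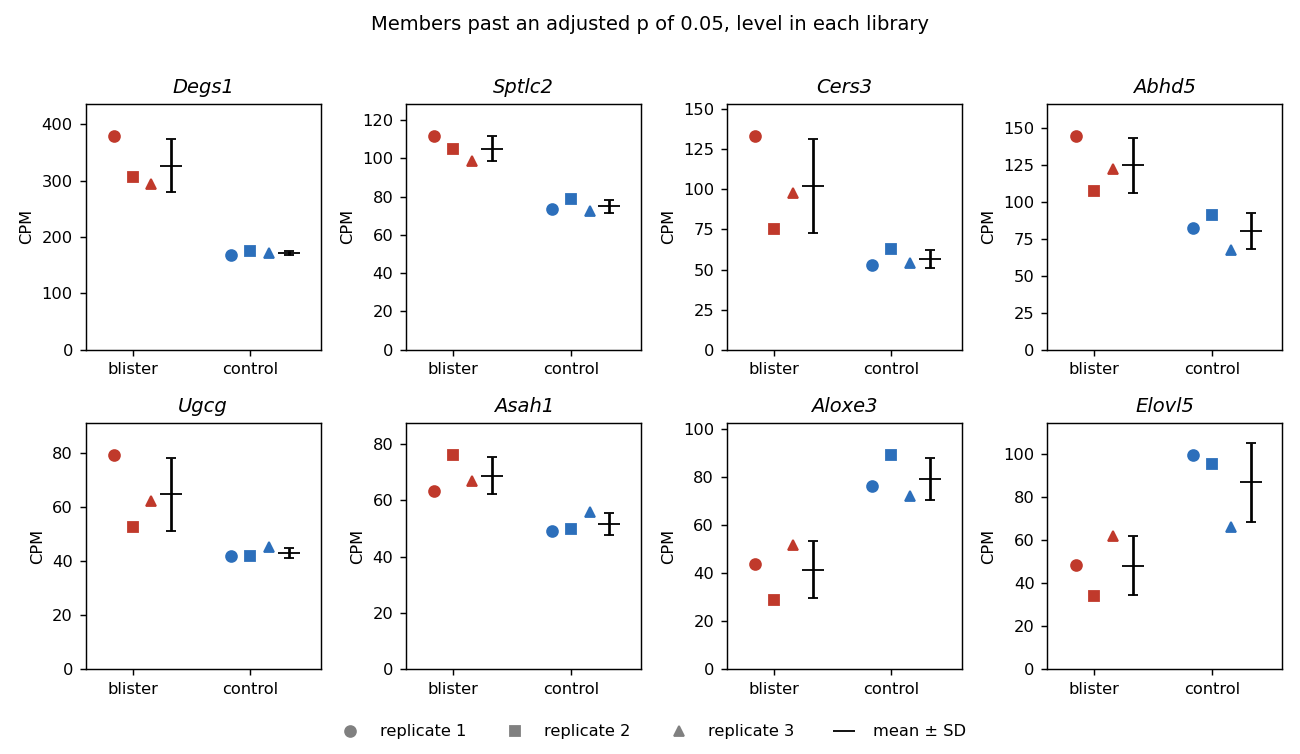
Level in CPM (y axis, from 0) of the 8 enzymes past the adjusted threshold in each blister and control library, with the mean and SD of 3 libraries beside the points. In each panel the groups do not overlap. Degs1 lies at 293 to 379 CPM in blister and 169 to 174 CPM in control libraries.

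Ratios within a library do not depend on how libraries are scaled, and 8 pairs of enzymes of 1 step were compared in that way. There were 3.19, 1.6 and 1.13 counts of Cers3 per count of Cers4 in blister 1, 2 and 3, against 0.369, 0.332 and 0.683 in control 1, 2 and 3. Cers3 was the more counted of the pair in every blister library and Cers4 in every control. These counts are not corrected for transcript length. Per kilobase of the principal transcript, Cers3 was above Cers4 in control libraries as well (48.9 and 14.5 CPM per kb). With length over all annotated exons they had 17.4 ± 1.72 and 11.2 ± 4.54 CPM per kb in control libraries. Those SD ranges just overlapped, so this gap too depends on the gene model. The log2 ratio averaged 0.84 ± 0.76 in blister and -1.19 ± 0.56 in control libraries (SD, n = 3 each; two-sided exact permutation p = 0.1, adjusted over the 8 pairs 0.267). With 3 libraries against 3, 0.1 is the smallest p this test can give. The ratio of Elovl4 to Elovl3 also separated the groups (13.2, 8.16 and 7.92 in blister, 5.57, 3.90 and 6.0 in control libraries), and so did that of Degs2 to Degs1 (0.0463, 0.0550 and 0.0502 in blister, 0.0744, 0.0753 and 0.0619 in control libraries). For these pairs the exact permutation p was likewise 0.1, and 0.267 adjusted over the 8 pairs. No share of separating ratios was computed over other gene pairs. Among all single genes tested, the groups did not overlap for 21.4% upwards and 23.2% downwards. The remaining 5 pairs overlapped.

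**Figure D3:**
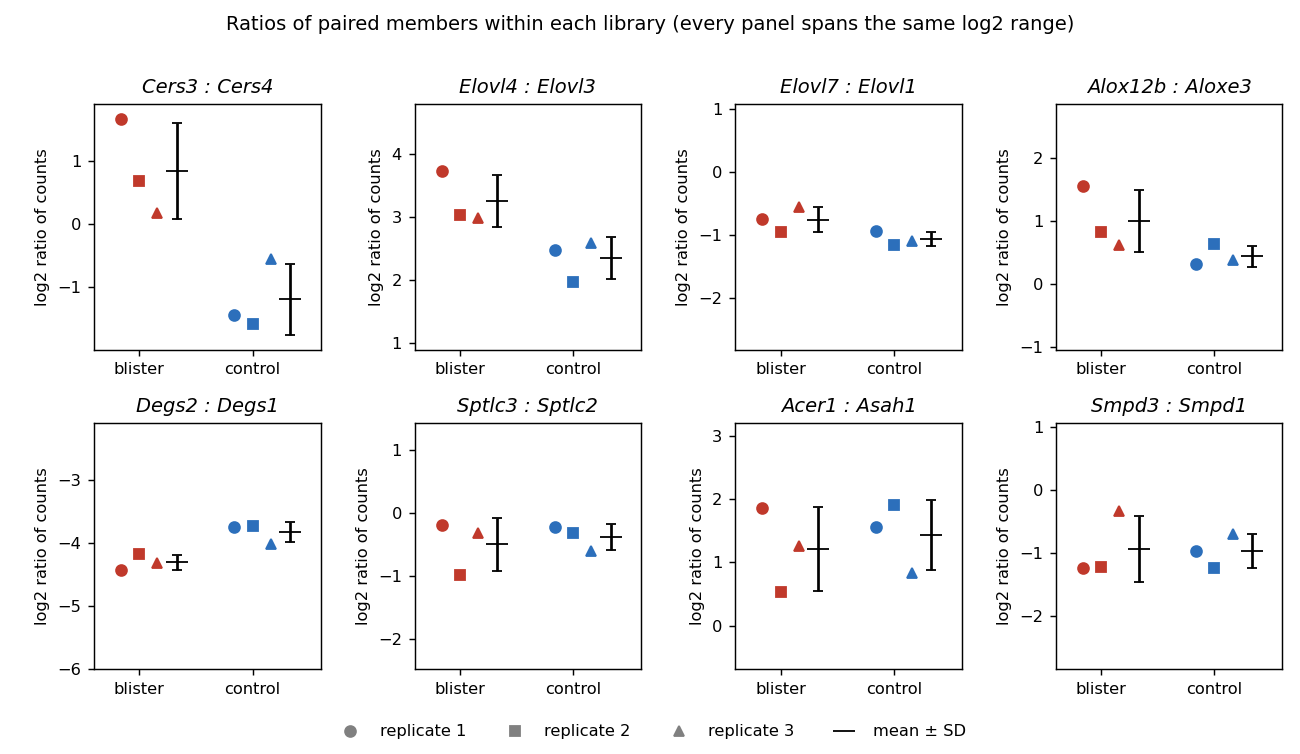
Log2 ratio of counts of paired enzymes (y axis) in each blister and control library, with mean and SD of 3 libraries. The groups separate for Cers3 to Cers4, Elovl4 to Elovl3 and Degs2 to Degs1 and overlap in the other 5 panels.

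Of the 6 elongases 1 was called. Elovl5, which lengthens polyunsaturated fatty acids, fell: it was at 48.4, 34.3 and 61.9 CPM in blister, against 99.5, 95.6 and 65.9 CPM in control libraries, so blister 3 came close to control 3. The log2 fold change was -0.85 ± 0.24 (edgeR adjusted p = 0.0446), and it did not pass without blister 1 (0.130), blister 2 (0.0963), control 1 (0.138) or control 2 (0.117). Elovl4, which makes the ultra-long chains of acylceramides, showed no consistent shift, at 793, 438 and 746 CPM in blister and 733, 733 and 430.2 CPM in control libraries (log2 fold change 0.06 ± 0.28, edgeR adjusted p = 0.893). Blister 2 and control 3 were the low libraries. Elovl1, which feeds very long chains to Elovl4, was at 472, 332 and 326 CPM in blister, against 308, 371 and 291 CPM in control libraries (0.22 ± 0.18), with only blister 1 above the control range. Elovl7, active on saturated long-chain acyl-CoAs, was at 282, 172 and 221 CPM in blister, against 161, 167 and 137 CPM in control libraries, which did not overlap but did not pass (0.54 ± 0.19, edgeR adjusted p = 0.0787, or 0.0380 without blister 2).

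Elovl3 and Elovl6, with the fatty acid hydroxylase gene Fa2h and with Cers4, shared a pattern over libraries. Elovl3, an elongase of sebaceous glands and follicles in mice, was at 60.1, 53.7 and 94.2 CPM in blister, against 132, 188 and 71.7 CPM in control libraries. Elovl6, which extends palmitate, was at 152, 106 and 276 CPM in blister, against 421, 532 and 249 CPM in control libraries. Fa2h, which hydroxylates the fatty acid of sphingolipids and whose loss in mice alters sebum, was at 85.2, 65.9 and 149 CPM in blister, against 234, 351 and 99.3 CPM in control libraries. All 4 genes were highest in control 2, then control 1, blister 3 and control 3, with blister 1 and 2 lowest. Of all genes tested 93 (0.663%) had that order, among them 2 of 13 sebaceous gland markers (Scd1 and Far2) and 0 of 14 hair follicle markers. The order was noticed in these values, so no test is attached to it. None of the 4 passed in the reported fit of all libraries (log2 fold changes -0.91 ± 0.36, -1.17 ± 0.39, -1.19 ± 0.47 and -1.23 ± 0.37 for Elovl3, Elovl6, Fa2h and Cers4, edgeR adjusted p 0.103, 0.0698, 0.104 and 0.0538). With DESeq2 all 4 were called. Since blister 3 and control 3 define the pattern, values without them are no separate test of it. Without blister 3 the edgeR adjusted p of Elovl6 was 0.0204, and without control 3 those of Elovl3 and Fa2h were 0.0414 and 0.0412. The sebaceous markers, of which Krt79 was the most abundant (2295 ± 351 CPM in blister, 2978 ± 921 CPM in control libraries), were in sum likewise lower in control 3 (2737 CPM) than in control 1 and 2 (4969 and 5388 CPM) and higher in blister 3 (3659 CPM) than in blister 1 and 2 (2548 and 2986 CPM), and the part of gland content in these values was not tested.

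**Figure D4:**
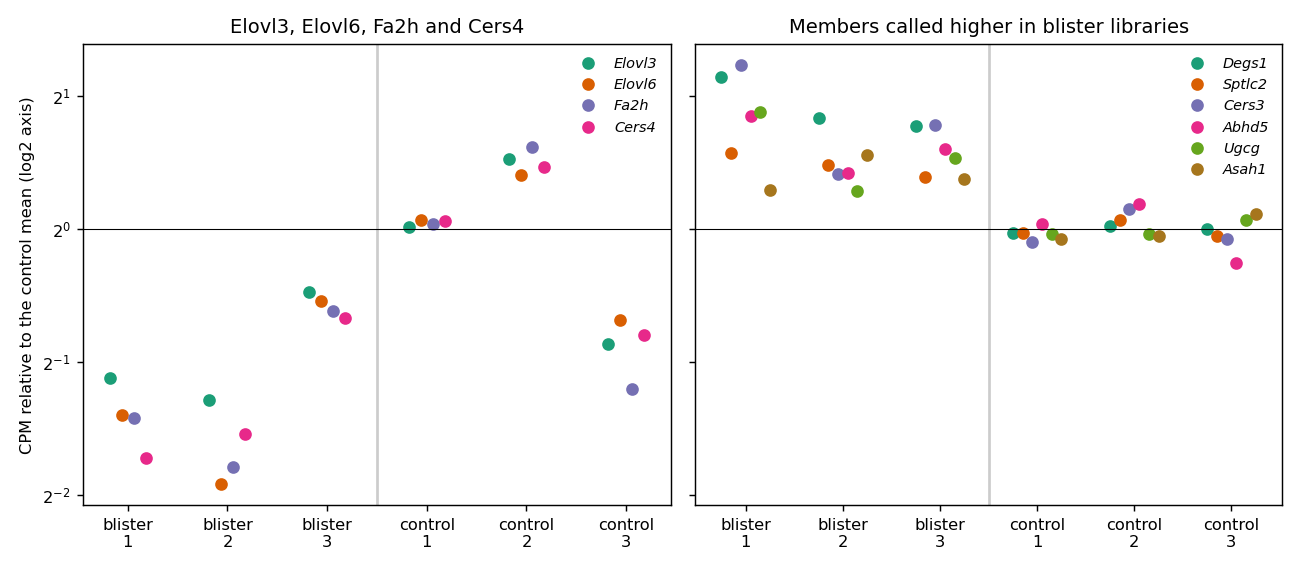
CPM of each gene relative to its own control mean (y axis, log2 scale) in each library. Left, Elovl3, Elovl6, Fa2h and Cers4, with blister 3 and control 3 at similar levels between the other libraries; right, the 6 enzymes that rose, where every blister library lies above every control of the same gene.

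Per kilobase of transcript, Elovl4 and Elovl1 were the most abundant elongases. Elovl4 had 219.6 ± 64.2 CPM per kb in blister and 211 ± 58.3 in control libraries, and Elovl1 208 ± 45.6 in blister and 178 ± 23.3 in control libraries. With length over all annotated exons they had 218 ± 63.7 and 138 ± 30.3 CPM per kb in blister and 209 ± 57.8 and 119 ± 15.5 CPM per kb in control libraries, so whether the SD ranges of the pair overlap in control libraries depends on the gene model. In control libraries Elovl3 (69.4 ± 31.0) and Elovl6 (67.3 ± 23.9) came next, level with each other, ahead of Elovl7 (38.6 ± 3.93) and Elovl5 (31.3 ± 6.60). In blister libraries Elovl7 came next, at 56.1 ± 13.8 CPM per kb, above Elovl3 (36.9 ± 11.6), Elovl6 (29.9 ± 14.8) and Elovl5 (17.3 ± 4.97), whose spreads overlapped in part. The order was the same with length over all annotated exons.

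Acylceramide formation and glucosylation each held 1 gene that rose. Abhd5, the activator that lets Pnpla1 transfer linoleate onto ceramide, was at 145, 108 and 122 CPM in blister, against 82.3, 91.4 and 67.2 CPM in control libraries, without overlap (log2 fold change 0.64 ± 0.16, edgeR adjusted p = 0.0314). It did not pass without blister 1 (0.1), control 1 (0.0973), control 2 (0.0535) or control 3 (0.0908). An antisense gene, A730085K08Rik, covers 16% of its exon bases and had at most 16 counts in a library. Pnpla1, the transacylase itself, overlapped between groups at 69.1, 27.8 and 62.7 CPM in blister and 45.3, 54.7 and 41.3 CPM in control libraries (0.18 ± 0.31). Blister 2 was its lowest library and blister 1 its highest. Pnpla1 shares 13.3% of its exon bases with Pnpla1os, an antisense gene not among the counted symbols, so its reads may in part be those of Pnpla1os.

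Ugcg, the ceramide glucosyltransferase, was at 79.2, 52.6 and 62.4 CPM in blister, against 42.0, 41.9 and 45.2 CPM in control libraries. The controls lay within a few CPM of each other and below every blister library (1.5-fold, log2 fold change 0.59 ± 0.16, edgeR adjusted p = 0.0382). The call was lost without blister 1 (0.0884), control 1 (0.124), control 2 (0.104) or control 3 (0.0805). Abca12, the transporter that loads glucosylceramide into lamellar bodies, varied widely in blister libraries, at 143, 82.6 and 200.4 CPM, against 79.6, 91.5 and 84.1 CPM in control libraries. Blister 2 fell within the control range, and the difference did not pass (0.74 ± 0.28, edgeR adjusted p = 0.0970). It passed when blister 2 was left out (1.02, 0.0211) and with DESeq2. Cyp4f39, the mouse relative of the human hydroxylase that acts on the far end of ultra-long chains, was at 181, 104 and 153 CPM in blister, against 91.3, 118 and 67.5 CPM in control libraries (0.66 ± 0.26), with blister 2 below control 2.

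In the lipoxygenase branch nothing rose. Aloxe3, the hydroperoxide isomerase that acts after Alox12b on acylceramide linoleate, was at 43.9, 28.6 and 51.8 CPM in blister, against 76.3, 89.0 and 72.1 CPM in control libraries. Every blister library lay below every control, 1.91-fold lower on average (log2 fold change -0.93 ± 0.21, edgeR adjusted p = 0.0242). The fall was not called without blister 1 (0.0749), control 1 (0.0718) or control 2 (0.0741). Alox12b, the lipoxygenase that makes its substrate and its direct neighbour on chromosome 11, stood at 129, 51.1 and 79.6 CPM in blister and 94.8, 138 and 93.5 CPM in control libraries, where blister 1 lay inside the control range (-0.33 ± 0.32, edgeR adjusted p = 0.484). Alox12b had 2.93, 1.78 and 1.54 counts per count of Aloxe3 in blister and 1.24, 1.55 and 1.30 in control libraries, which overlap (exact permutation p = 0.2). A difference in response between these neighbours was not shown.

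Alox12e, an epidermal lipoxygenase of mice, was at 46.9, 59.2 and 40.7 CPM in blister, against 90.2, 94.0 and 52.0 CPM in control libraries. Control 3 overlapped the blister range, and the gene passed only without it among the fits that left out 1 library (-0.69 ± 0.25 and edgeR adjusted p = 0.0812 in all libraries, -0.92 and 0.0292 without control 3). Sdr9c7, a dehydrogenase that acts on the oxidised ceramide, was at 59.4, 24.8 and 58.0 CPM in blister, against 36.5, 53.8 and 39.9 CPM in control libraries (0.13 ± 0.32). As with Pnpla1 and Alox12b, blister 2 was its lowest library.

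Among the enzymes that release or break down ceramide, Asah1, the lysosomal acid ceramidase, was at 63.2, 76.0 and 66.9 CPM in blister, against 49.1, 49.8 and 55.9 CPM in control libraries. It was the smallest change to pass (1.33-fold, log2 fold change 0.41 ± 0.12, edgeR adjusted p = 0.0458) and was called in 5 of 19 alternative fits. Of the 6 fits without a library, only that without blister 3 called it (0.0456). The others gave 0.0676 without blister 1, 0.0763 without blister 2, 0.164 without control 1, 0.123 without control 2 and 0.0743 without control 3. Acer1, the alkaline ceramidase of differentiated keratinocytes, was at 229, 109.9 and 160.1 CPM in blister, against 145, 187 and 99.5 CPM in control libraries, as variable within groups as between them (0.21 ± 0.31). A noncoding gene on the opposite strand, not among the counted symbols, shares 14.1% of the exon bases of Acer1, whose reads may in part be its own. The sphingomyelinase genes Smpd1 (82.1, 47.8 and 70.6 CPM in blister, 87.8, 107 and 79.6 CPM in control libraries) and Smpd3 (34.6, 20.4 and 56.0 CPM in blister, 44.6, 45.4 and 49.1 CPM in control libraries) did not pass. Smpd3 passed without blister 3, where it was highest (-0.74, edgeR adjusted p = 0.0490).

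The acid lipases of the granular layer, neighbours on chromosome 19, gave 0 calls among 3. At an unadjusted p under 0.05 there were also 0. Lipm was at 126, 67.9 and 116 CPM in blister, against 101, 97.5 and 80.8 CPM in control libraries (log2 fold change 0.15 ± 0.23), Lipk at 4.82 to 7.90 CPM in blister and 6.29 to 7.51 CPM in control libraries, and Lipn at 1.93 to 2.66 CPM in blister and 1.37 to 1.89 CPM in control libraries. Lipn rested on 14 to 29 counts in blister and 22 to 27 counts in control libraries, and its difference (0.51 ± 0.29) did not pass. Lipm shares 34.9% of its exon bases with Ankrd22 on the opposite strand, a gene at 63.0, 40.2 and 49.2 CPM in blister and 32.5, 31.2 and 22.9 CPM in control libraries. Ankrd22 was itself counted, and how reads over the shared bases were treated is not known. The level of Lipm is therefore uncertain.

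Summed up by step, the median log2 fold change was -0.39 for 6 elongases, -0.26 for 2 hydroxylases, 0.36 for 10 genes of base and ceramide synthesis, 0.41 for 2 of acylceramide formation and 0.67 for 2 of glucosylation and transport. It was -0.51 for 4 tested genes of the lipoxygenase branch, -0.05 for 4 of release and breakdown and 0.15 for 3 lipases. Glucosylation and transport stayed positive under all 19 alternatives, between 0.38 and 0.88, and elongases and the lipoxygenase branch stayed negative. With the dermal fibroblast level as covariate the medians of base and ceramide synthesis (-0.08), acylceramide formation (-0.18) and lipases (-0.22) were negative. The lipase median also turned negative with scaling by library size alone (-0.12), without blister 1 (-0.005) and without blister 3 and control 3 (-0.03). It was -0.02 with a stricter filter, which Lipn did not pass, so that median covers Lipk and Lipm only. The median of release and breakdown turned positive without blister 2 (0.16) or control 2 (0.04), and that of the hydroxylases positive without control 2 (0.08). Non-overlapping groups were seen for 9 of 33 enzymes upwards (27.3%) and 3 downwards (9.09%), against 21.4% and 23.2% of all genes tested. Blister 1 was the highest of the 6 libraries for 17 of 33 enzymes (51.5%, against 19.6% of all genes), and blister 2 the lowest for 12 (36.4%, against 24.4%). Control 2 was the highest for 8 (24.2%, against 10.3%) and control 3 the lowest for 11 (33.3%, against 21.3%). Of 12 granular layer markers 6 had a positive and 6 a negative log2 fold change (median -0.06), with Klk7 called higher (878 CPM in blister, 493 CPM in control libraries) and Lor, the most abundant, lower (1720.3 CPM in blister, 3463 CPM in control libraries). They summed to 5145, 3176 and 5714 CPM in blister 1, 2 and 3 and 6241, 7718 and 5280 CPM in control 1, 2 and 3, also lowest in blister 2. The suprabasal markers summed to 142900, 49350 and 78820 CPM in blister 1, 2 and 3, and to 45750, 70080 and 43450 CPM in control 1, 2 and 3. Their sum was thus highest in blister 1 and lowest in control 3. The part of either layer in the enzymes' levels was not tested.

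The rest of the sphingolipid and barrier lipid pathway, a list of 42 genes of which 41 were in the tables and 37 tested, had 5 genes higher and 2 lower (18.9% called, beside the 21.3% of all genes). Sgms1, which turns ceramide into sphingomyelin, was at 67.0, 51.9 and 60.5 CPM in blister, against 32.99, 37.0 and 35.7 CPM in control libraries (log2 fold change 0.76 ± 0.13, edgeR adjusted p = 0.0113, or 0.0538 without control 1). Sptssa, the small activating subunit of serine palmitoyltransferase, was at 236, 141 and 156 CPM in blister, against 97.8, 116 and 84.5 CPM in control libraries (0.83 ± 0.22, edgeR adjusted p = 0.0350). Ormdl3, which restrains the same enzyme, fell to 85.2, 74.1 and 90.9 CPM in blister, against 107, 120.3 and 111 CPM in control libraries (-0.43 ± 0.12, edgeR adjusted p = 0.0387). Of this complex and its regulators, Sptlc2 and Sptssa were called higher and Ormdl3 lower. Sptlc1, Sptlc3 and the related regulators Ormdl1 (0.20 ± 0.21, edgeR adjusted p = 0.519) and Ormdl2 (0.56 ± 0.22, edgeR adjusted p = 0.103) were not called, and Sptssb was too low to test. Sptssa lost its call without blister 1 (edgeR adjusted p = 0.0834), control 1 (0.108), control 2 (0.0603) or control 3 (0.102). Ormdl3 lost it without blister 1 (0.106), blister 2 (0.0818), control 1 (0.106), control 2 (0.119) or control 3 (0.0955).

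Gltp, a carrier of glycolipids, rose to 1044 ± 257 CPM in blister libraries, against 632 ± 103 CPM in control libraries (SD, n = 3 each; edgeR adjusted p = 0.0484). Nipal4, an ichthyosis gene of the granular layer, was at 151, 109.0 and 141 CPM in blister, against 80.6, 85.8 and 79.6 CPM in control libraries (0.71 ± 0.14, edgeR adjusted p = 0.0172). Smpd2, a neutral sphingomyelinase, was lower, at 38.9 ± 2.14 CPM in blister and 51.4 ± 1.12 CPM in control libraries (edgeR adjusted p = 0.0336). Cyp4f18, a relative of Cyp4f39 known from mouse neutrophils, was at 4.68, 15.7 and 5.86 CPM in blister, against 0.690, 0.490 and 0.398 CPM in control libraries (4.03 ± 0.57, edgeR adjusted p = 0.00778). The neutrophil markers summed to 202, 340.2 and 117 CPM in blister and 28.4 to 29.3 CPM in control libraries, the most abundant being Il1r2 (45.9 CPM in blister, 23.1 CPM in control libraries), and their part in its rise was not tested. That call held without any 1 library. Gltp was called only without blister 2 (edgeR adjusted p = 0.0380) among the fits that left out 1 library. It gave 0.139 without blister 1, 0.0644 without blister 3, 0.133 without control 1, 0.0765 without control 2 and 0.137 without control 3. Nipal4 lost its call without blister 1 (0.0566), control 1 (0.0701), control 2 (0.0502) or control 3 (0.0547). Smpd2 lost it without blister 1 (0.0722), blister 2 (0.0654), control 1 (0.133), control 2 (0.0880) or control 3 (0.0901).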

How the data were processed

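The deposited files hold, per the labels, 1 library each of mouse epidermal RNA purified with oligo-dT beads and prepared with a TruSeq kit. The authors deposited unnormalized counts of reads for each gene symbol. HISAT2 2.0.0 and featureCounts, and the builds NCBIM37 and mm9, are named per the submitters' processing notes, without featureCounts version, annotation or strand setting. Quasi-likelihood F-tests of edgeR 4.0.16 under R 4.3.3 were run on the 6 libraries with TMM scaling, the group as the single term and filterByExpr (minimum count 10, total 15). The 14028 genes left were adjusted together by Benjamini-Hochberg, two-sided, with a threshold of 0.05. CPM were scaled to the counts of the genes tested and TMM factors (0.841 to 0.957 in blister, 1.06 to 1.11 in control libraries). Errors after log2 fold changes are standard errors. Pair ratios used counts plus 0.5 and an exact permutation test (scipy 1.17.1). Transcript lengths, overlaps and neighbours came from GENCODE M21 and RefSeq on GRCm38, whose coordinates were not used with the counts. No 2 libraries of a group were copies of each other by a chi-square over genes. Libraries with the same number did not vary together (r of deviations 0.211, -0.25 and 0.0655), so they were not paired. The enzymes and lists were chosen with earlier results of these data known. The text names every enzyme of the list, every called gene of the rest of the pathway, and the most abundant tested marker of each list (Lpl for adipocytes, Epcam for macrophages with Langerhans cells, Pecam1 for endothelium, Krt16 for wound keratinocytes, the others above); other names were chosen after their values were seen. Of the marker lists, those of adipocytes (0 of 6 tested called) and macrophages with Langerhans cells (0 of 11) gave no call, wound keratinocyte markers were higher for 7 of 8, endothelial markers lower for 2 of 5, basal markers higher for 3 of 7, suprabasal markers higher for 1 of 7 and granular markers higher for 1 and lower for 1 of 12, and skeletal muscle markers gave 0 of 2. The procedure was tested on simulated counts, where libraries of a group differed only in size and random spread. Shifts of single libraries, as in control 3, were not simulated. Alternatives were other scalings, filters and tools (DESeq2 1.42.0, limma-voom 3.58.1), leaving out libraries or the 50 most abundant genes, and covariates. Plots were drawn with matplotlib 3.10.9.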

Additional observations from a re-analysis of the deposited data

How the results depend on the processing

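No enzyme that was called changed sign under any of the 19 alternatives, but the calls themselves were fragile. Over the 33 tested enzymes, 56 of 626 values lost a call and 37 gained one. Only the 8 called enzymes had a call to lose. Of 19 alternatives, Degs1 stayed called in 18, Aloxe3 in 15 and Elovl5 and Sptlc2 each in 13. Cers3 and Abhd5 stayed called in 11 each, Ugcg in 10 and Asah1 in 5. The number of enzymes called higher and lower, 6 and 2 in the reported fit, was 1 to 7 and 0 to 6 when 1 library was left out, with edgeR calling 0 lower without blister 1, control 1 or control 2 (4, 5 and 5 lower at an unadjusted p under 0.05). It was 2 and 8 with library size alone, a scaling that moved the median of all genes to -0.25 and gave 544 higher and 2831 lower calls over all genes, beside 1367 and 1626 in the reported fit. It was 9 and 8 with DESeq2, 2 and 7 without blister 3 and control 3, and 2 and 2 with Xist, an RNA of female cells that differed between libraries, as covariate. With the dermal fibroblast level as covariate it was 0 and 1 (2 higher and 11 lower at an unadjusted p under 0.05), and the enzymes' median log2 fold change became -0.26 and Degs1 was no longer called (edgeR adjusted p = 0.110). The replicate block gave 3 higher and 2 lower, and libraries did not each correlate best with their own number. For all genes, leaving out 1 library gave 306 to 1998 higher and 479 to 2063 lower, the Xist covariate 694 and 1037, and the dermal covariate 176 and 79. For the rest of the pathway, 5 higher and 2 lower in the reported fit, the ranges without 1 library were 1 to 6 and 0 to 2, with 0 lower in edgeR without any 1 library other than blister 3 (2 to 4 at an unadjusted p under 0.05). It had 3 and 5 with library size alone, 3 higher with the stricter filter, 8 higher with DESeq2, 0 lower with no filter, 1 lower with the replicate block, 1 lower without blister 3 and control 3, 3 and 0 with Xist and 1 and 0 with the dermal covariate. At an unadjusted p under 0.05 these last counts of 0 were 2 with no filter, 2 with Xist and 6 with the dermal covariate. The pair ratios kept their sign under the pseudocount of 1. Without any 1 library, the sign held for Cers3 to Cers4 (1.62 to 2.37), Elovl4 to Elovl3 (0.67 to 1.03) and Degs2 to Degs1 (-0.57 to -0.42). It also held for Elovl7 to Elovl1 (0.21 to 0.41) and Alox12b to Aloxe3 (0.29 to 0.75), whose groups overlapped. The other pairs changed sign. The causes of these shifts were not tested. Alox8 and Lipn had the fewest counts of the enzymes, and blister 2 the lowest total, 7600567 counts.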
